A study of Mus musculus with 12 samples.

Results

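The mitochondrial solute carriers of family SLC25 were measured by RNA-seq in whole livers of mice with and without sepsis. A row of the deposited table was taken as a member when its symbol was Slc25a followed by a number and its mean over all 12 mice was at least 1 CPM, the unit of reads scaled to a common library size. Of 25611 genes in the table, 47 carried such a symbol and 39 reached that level, and all 39 also passed the filter on low counts that left 13190 genes for testing. The other 8 are given at the end. Just inside the limit were Slc25a36 and Slc25a24, with means of 1.08 and 1.26 CPM on total counts, and just outside it was Slc25a35 with 0.93 CPM.

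All mice were male C57BL/6J animals aged 8 to 10 weeks, and each library was the liver of 1 mouse. In the sham group (4 mice) the abdomen was opened and the cecum left intact, in the CLP group (4 mice) the cecum was ligated and punctured, and in the CLP+DCA group (4 mice) this was followed at 24 hr by an intraperitoneal injection of dichloroacetate (DCA) at 25 mg/kg. Livers of every group were taken 30 hr post-surgery, which was 6 hr after DCA. All animals received saline under the skin after surgery, and the injection given to the other groups at 24 hr is not named in the sources used here. CLP is a model of sepsis from gut bacteria, and DCA inhibits the kinases that switch off pyruvate dehydrogenase.

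SLC25 proteins sit in the inner mitochondrial membrane, which small charged molecules cannot cross by themselves. Most are exchangers that let 1 substrate in as they let another out, and so connect the pathways of the matrix with those of the cytosol. In liver they carry ADP and ATP for oxidative phosphorylation, citrate for fatty acid and sterol synthesis, aspartate and ornithine for the urea cycle, acylcarnitines for fatty acid oxidation, and iron and glutathione for heme and iron-sulfur cluster assembly. The comparison of CLP with sham asks how these carriers stand in the septic liver, and that of CLP+DCA with CLP asks whether they stand differently after the drug.

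The depth was 24436513 to 44266819 counted reads per mouse (median 30005989). SLC25 members together took 0.394% to 0.443% of them in sham, 0.275% to 0.386% in CLP and 0.330% to 0.420% in CLP+DCA. Because CPM is a share of a library, genes of the acute phase response bear on it. The 29 acute phase genes examined took 12.3% to 13.7% of the reads in sham, 21.4% to 35.9% in CLP and 15.9% to 35.0% in CLP+DCA. In whole liver, fewer cells of a type and less RNA per cell cannot be told apart. The summed level of 10 hepatocyte markers, all of which were detected, ranged from 72403 to 91421 CPM in sham, 38085 to 55042 CPM in CLP and 34006 to 67641 CPM in CLP+DCA. A large part of this sum was Alb, with means of 46635 CPM in sham, 21554 CPM in CLP and 26318 CPM in CLP+DCA. Of the 10 markers, 8 were lower and 2 higher in CLP versus sham (80% lower, against 48.1% of all genes). The summed level of 10 neutrophil markers ranged from 4.90 to 6.21 CPM in sham, 27.8 to 39.9 CPM in CLP and 4.34 to 55.4 CPM in CLP+DCA.

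A pair of libraries stood apart from their groups. CLP replicate 3 held skeletal muscle RNA: 21 muscle markers, a list written after the values had been seen, summed to 3552 CPM there and to at most 23.6 CPM in each of the other 11 mice. CLP+DCA replicate 3 held the largest acute phase share and neutrophil sum of its group, and its correlation with the rest of the group, 0.929, was the lowest of all mice. It had the lowest level of 17 of the 39 carriers (43.6%), whereas it was the lowest mouse for 22.8% of all genes tested. Leaving out either mouse was an alternative setting, and leaving out both together was one added after the values had been seen.

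In CLP versus sham, 3 of the 39 carriers passed the false discovery rate (FDR) of 0.05 in edgeR's quasi-likelihood test on all 12 mice. Slc25a37, a mitochondrial iron importer, and Slc25a1, the citrate carrier, fell, and Slc25a12, an aspartate/glutamate carrier, rose. This was 7.69% of the members against 2.78% of all genes tested (1.64% higher and 1.14% lower). At an unadjusted p under 0.05 were 12 members (30.8%, 3 higher and 9 lower), close to the share of all genes (28.6%, 15.5% higher and 13.1% lower). The higher ones included Slc25a4, which rested on CLP replicate 3 (edgeR unadjusted p 0.46 without it). The levels of both groups did not overlap for 8 members (20.5%), 1 higher and 7 lower, against 26.5% of all genes (12.2% higher and 14.2% lower). In sum 24 carriers were lower (61.5%, against 48.1% of all genes) and 15 higher in CLP, and their median log2 fold change was -0.13 against 0.02 over all genes tested. The direction of the median held when CPM was taken on total counts (-0.31) and on library sizes without the acute phase genes (-0.02). These settings moved the median of all genes as well, to -0.16 and 0.14. Other fits called more carriers along with more genes: 5 for edgeR on the 8 mice compared (18.3% of all genes), 6 and 11 for DESeq2 on 12 and 8 mice (13.4% and 23.2%), 10 for voom (25.9%) and 8 for edgeR without CLP+DCA replicate 3 (23.8%).

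**Figure D1:**
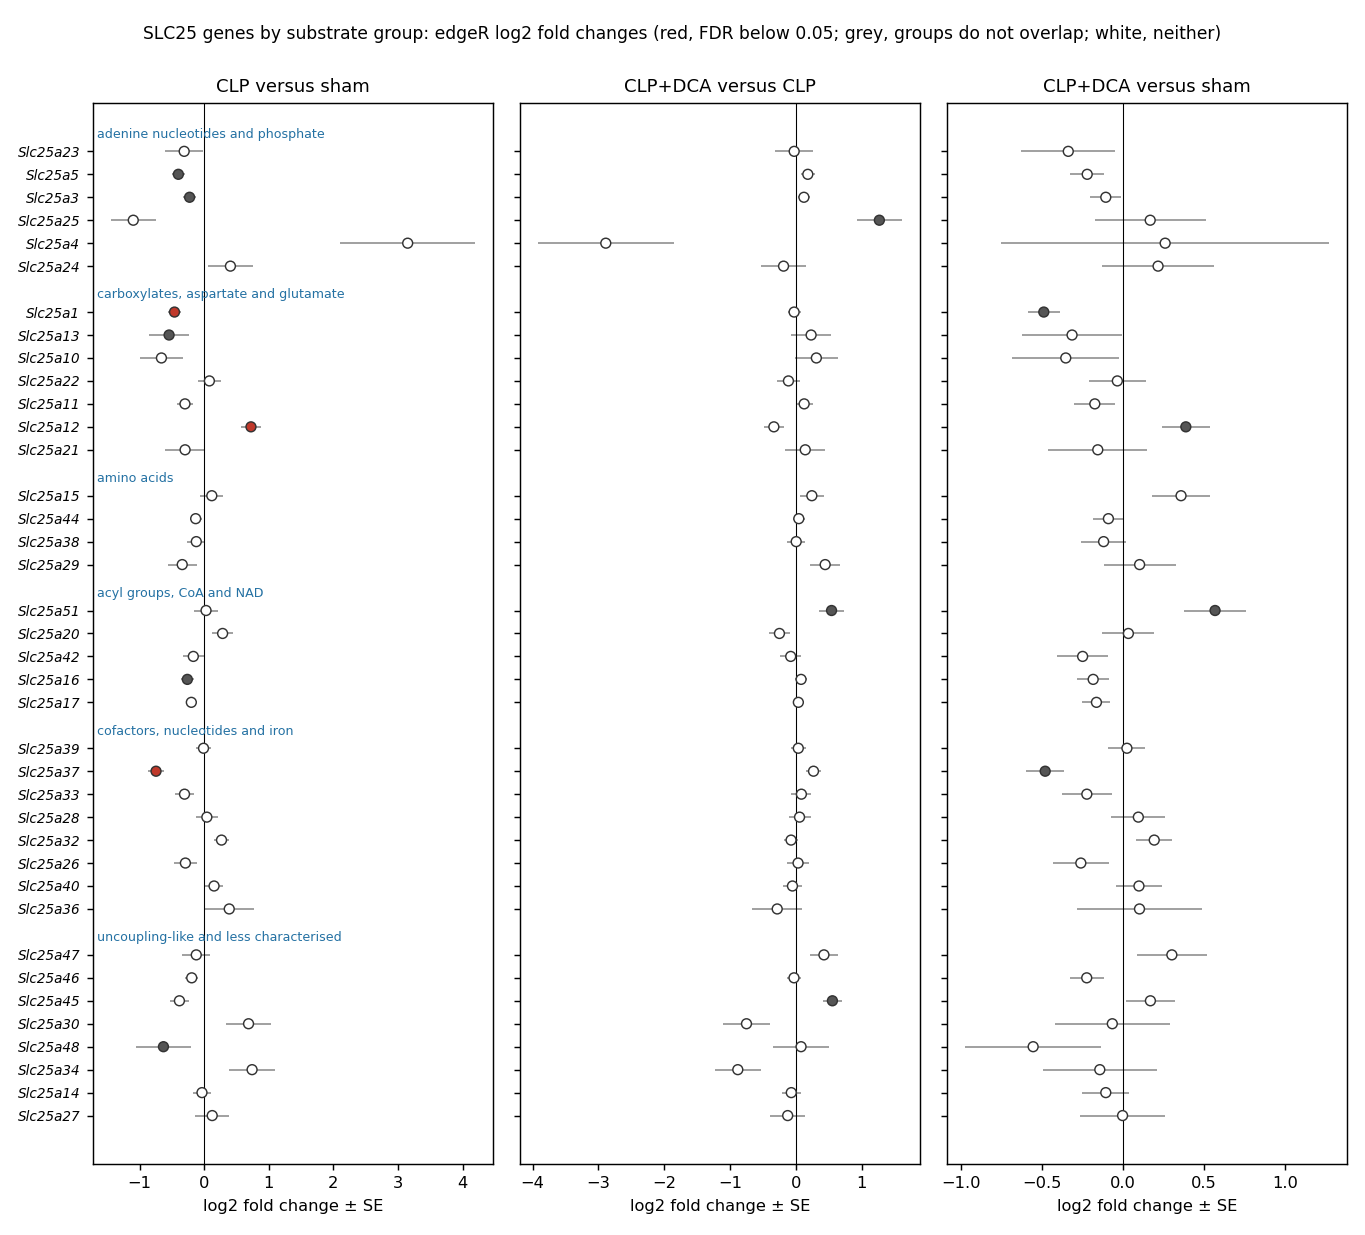
The log2 fold change ± SE of 38 of the 39 SLC25 genes (x axis, own range in each panel) by substrate group (y axis) is plotted for the 3 comparisons, 4 mice per group. Filled red points passed the FDR of 0.05, filled grey points have groups whose mice do not overlap, and open points are neither. The 3 red points are Slc25a1, Slc25a12 and Slc25a37 in CLP versus sham, and the other panels hold none.

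In CLP+DCA versus CLP no carrier passed the FDR in this test, as against 1 of 13190 genes (0.00758%). Unadjusted p was under 0.05 for 7 of 39 (17.9%, 4 higher and 3 lower) against 10% of all genes (5.06% and 4.94%). The lower ones included Slc25a4 and Slc25a34, which rested on CLP replicate 3 (edgeR unadjusted p 0.73 and 0.15 without it). DESeq2 called 1 carrier, Slc25a25, on 12 or 8 mice (0.875% and 0.615% of all genes), voom called 4 (9.76%), and edgeR without CLP+DCA replicate 3 called 3 (4.64%). The mice of both groups did not overlap for 3 carriers (7.69% against 4.37% of all genes, 2.32% higher), namely Slc25a25, Slc25a45 and Slc25a51, each higher after DCA. The median log2 fold change was 0.04 against 0.01 over all genes, and it went to -0.022 without CLP+DCA replicate 4, to -0.0071 without CLP replicate 4 and to -0.00032 without CLP replicate 2. Again no carrier passed in CLP+DCA versus sham, as against 5 genes (0.0379%). Here 4 of 39 (10.3%) had an unadjusted p under 0.05, against 13% of all genes, while DESeq2 called 2 on 12 or 8 mice (1.79% and 1.19%) and voom 2 (3.59%). The same 4, Slc25a1 and Slc25a37 lower and Slc25a12 and Slc25a51 higher, were those without overlap (10.3% against 9.76%). As the 3 comparisons share mice, they are set side by side below and not correlated.

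Among the carriers of iron and cofactors, Slc25a37 (mitoferrin 1, chr14:69241851-69285103, mm10) had the smallest p of the family. Its level was 47.7, 46.3, 48.3 and 41.7 CPM in the 4 sham mice and 29.7, 25.6, 27.2 and 27.0 CPM in the 4 CLP mice. After DCA it was 37.1, 35.7, 24.6 and 34.6 CPM. All CLP mice lay below all sham mice, and 3 of the CLP+DCA mice lay between them, whereas CLP+DCA replicate 3 lay below every CLP mouse. The mean fell from 46.0 ± 3.00 CPM in sham to 27.4 ± 1.70 CPM in CLP (SD, n = 4 each), or by -0.75 ± 0.12 on the log2 scale (SE, edgeR FDR 0.020). This adjusted p ranged from 0.061 to 0.083 when sham replicate 1, 2 or 3 or CLP replicate 2 or 4 was left out, while the fold change stayed between -0.72 and -0.74. With the replicate block the adjusted p was 0.053.

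The difference of Slc25a37 between CLP+DCA and CLP was 0.27 ± 0.12 on the log2 scale (unadjusted p 0.045, edgeR FDR 0.50). Without CLP+DCA replicate 3 it was 0.38, with an edgeR FDR of 0.028, so that in edgeR the call turned on this mouse. Voom called the difference with all 12 mice in the fit. Against sham the difference was -0.48 ± 0.12 (edgeR FDR 0.23). It was called in 2 of 23 alternatives, DESeq2 on all 12 mice and voom. Red cell precursors also need this importer. Of the 9 rows of their marker list, 6 globin rows were listed at 0 reads in every mouse, and the membrane gene Slc4a1 stayed at or below 0.22 CPM. How these rows were counted is not given in the sources used here, and a low value in this table need not mean a low level: Ass1, a urea cycle enzyme that liver is known to make in abundance, was at 0.51 CPM on average. Alas2, which makes the first heme precursor in red cells, was the exception, with 78.7 to 87.2 CPM in sham, 33.4 to 56.9 CPM in CLP and 22.8 to 84.5 CPM in CLP+DCA. Its difference in CLP versus sham was -0.94 ± 0.30 on the log2 scale and missed the threshold in edgeR (FDR 0.086), while DESeq2 on all 12 mice and voom both called it lower. The part of red cell precursors in the level of Slc25a37 was not tested.

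The related importer Slc25a28 (mitoferrin 2) ranged from 16.4 to 17.6 CPM in sham, 14.9 to 22.1 CPM in CLP and 14.3 to 24.4 CPM in CLP+DCA, with a difference of 0.04 ± 0.17 in CLP versus sham. Whether the paralogs differ in their change was not tested. Slc25a39, which carries glutathione into the matrix, had the highest mean CPM of the family, on a scale that does not allow for gene length. It was at 359, 399, 412 and 382 CPM in sham, 352, 452, 362 and 375 CPM in CLP and 371, 432, 406 and 370 CPM in CLP+DCA. The groups overlapped throughout, and the differences in the 3 comparisons lay between -0.01 and 0.04, each with an SE of 0.11. Its paralog Slc25a40 was near 4 CPM in every group (lowest 3.17, highest 5.07 CPM). Of the 9 carriers in this group, 1 passed the FDR in CLP versus sham (11.1%, against 2.78% of all genes). The folate and FAD carrier Slc25a32 had an unadjusted p of 0.032 (0.27 ± 0.11), and the carriers of S-adenosylmethionine (Slc25a26) and pyrimidine nucleotides (Slc25a33, Slc25a36) ranged from -0.31 to 0.39 with no unadjusted p under 0.05. The 0.39 was that of Slc25a36 and rested on CLP replicate 3, without which it was -0.12 ± 0.31.

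**Figure D2:**
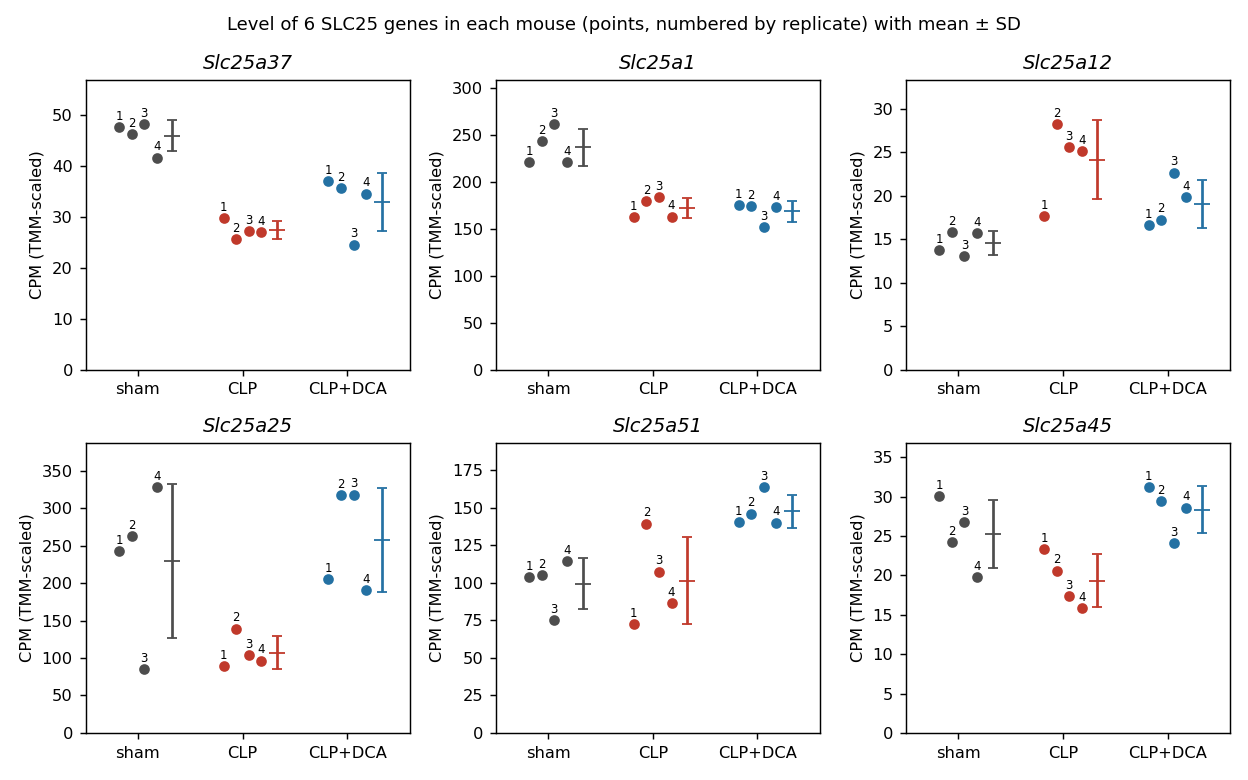
The level of 6 SLC25 genes (y axis, TMM-scaled CPM, from 0) is shown in each mouse of the 3 groups (x axis) as a point numbered by replicate, with the mean and SD beside it. Slc25a37 and Slc25a1 lie lower and Slc25a12 higher in every CLP mouse than in every sham mouse, and Slc25a25, Slc25a51 and Slc25a45 lie higher in every CLP+DCA mouse than in every CLP mouse.

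Of the 7 carriers of carboxylates, aspartate and glutamate, 1 rose and 1 fell in CLP versus sham at the FDR (28.6% together, against 2.78% of all genes, 1.64% higher and 1.14% lower). Slc25a1 (chr16:17925211-17928219, mm10) exports citrate, the carbon source of fatty acid synthesis. It was at 221, 243, 262 and 221 CPM in sham, 162, 180, 183 and 163 CPM in CLP and 175, 174, 152 and 173 CPM in CLP+DCA. Neither operated group reached the lowest sham mouse. The mean was 237 ± 19.7 CPM in sham, 172 ± 11.05 CPM in CLP and 169 ± 11.1 CPM in CLP+DCA (SD, n = 4 each). The fall in CLP, -0.46 ± 0.10 on the log2 scale, was close to the threshold (edgeR FDR 0.041), and the adjusted p was 0.061 to 0.12 when any of the sham mice, CLP replicate 1, 2 or 4, or CLP+DCA replicate 1 or 2 was left out. It was also 0.067 on library sizes without the acute phase genes, 0.061 with no filter on low counts and 0.10 with the replicate block. Its level after DCA differed from CLP by -0.03 ± 0.10, and from sham by -0.49 ± 0.10 (unadjusted p 0.00037, edgeR FDR 0.15), which DESeq2 called.

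Slc25a12 (aralar, chr2:71274295-71367554, mm10) and Slc25a13 (citrin) both export aspartate in exchange for glutamate, a step of the malate-aspartate shuttle, and citrin is the form that liver is known for. Slc25a12 was at 13.7, 15.9, 13.1 and 15.7 CPM in sham, 17.6, 28.3, 25.6 and 25.1 CPM in CLP and 16.6, 17.3, 22.7 and 19.9 CPM in CLP+DCA. Every operated mouse was above every sham mouse. The mean rose from 14.6 ± 1.40 to 24.1 ± 4.56 CPM in CLP (SD, n = 4 each), by 0.72 ± 0.15 on the log2 scale (edgeR FDR 0.038). The adjusted p was 0.051 to 0.11 without any 1 of the sham mice, CLP replicate 2 or 4, or CLP+DCA replicate 1, and the fold change then lay between 0.64 and 0.76. On total counts the adjusted p was 0.053 (fold change 0.54), with no filter on low counts 0.051 and with the replicate block 0.065. CLP+DCA differed from CLP by -0.34 ± 0.15 (unadjusted p 0.043, edgeR FDR 0.49).

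Citrin was at 199, 226, 202 and 196 CPM in sham, 165, 83.2, 191 and 125 CPM in CLP and 184, 163, 77.8 and 237 CPM in CLP+DCA. Both groups of the first comparison lay apart, but the spread within CLP was wide, and the difference of -0.54 ± 0.31 missed the threshold (edgeR FDR 0.25). Voom on all 12 mice called citrin lower, as did edgeR with replicate 3 of both operated groups left out. On the scale of CPM per kb of exon, the level of citrin was 24.1 to 29.8 times that of aralar in the sham mice, 5.69 to 18.1 times in the CLP mice and 6.63 to 23.1 times in the CLP+DCA mice. The lowest ratios were those of CLP replicate 2 and CLP+DCA replicate 3. As this ratio was looked at after the values of both genes were known, it is given without a test.

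Of the other members of this group 3 were lower in CLP and 1 was near 0, with none past the FDR in edgeR. Slc25a10, the dicarboxylate carrier, differed by -0.66 ± 0.33 and had its lowest level, 63.3 CPM, in CLP+DCA replicate 3. Slc25a11, which exchanges 2-oxoglutarate for malate in the same shuttle, differed by -0.30 ± 0.13 (unadjusted p 0.037). The glutamate carrier Slc25a22 differed by 0.08 ± 0.18 and the oxodicarboxylate carrier Slc25a21 by -0.30 ± 0.31. Their differences in CLP+DCA versus CLP lay between -0.11 and 0.31. Without CLP+DCA replicate 3, Slc25a10 and Slc25a11 passed the FDR in CLP versus sham, in which that mouse takes part through the shared estimate of the spread. Voom, and DESeq2 on the 8 mice compared, also called both.

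The start regions of both called carriers in this group, 1 of which fell and 1 of which rose, were read from the RefSeq promoter table (GRCm38.p6, the assembly of mm10), which held entries for 31 of the 39 members. Shown 5′ to 3′ on the coding strand are the 250 bases before the start, which are chr16:17928220-17928469 (minus strand) for Slc25a1, at the start the deposited coordinates give, and chr2:71367756-71368005 (minus strand) for Slc25a12, 201 bases from it. Capitals mark matches, on either strand, to the GC box GGGCGG, to the letters CCAAT of the box of that name, to the letters TATAAA of the TATA box, to the E-box CACGTG and to the cAMP response element TGACGTCA, which do not overlap in these windows.
Slc25a1: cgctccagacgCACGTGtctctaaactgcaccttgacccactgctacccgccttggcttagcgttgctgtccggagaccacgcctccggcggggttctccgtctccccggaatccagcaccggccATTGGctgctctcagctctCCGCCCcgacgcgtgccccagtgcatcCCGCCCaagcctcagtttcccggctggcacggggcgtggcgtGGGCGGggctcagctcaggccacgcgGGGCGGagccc
Slc25a12: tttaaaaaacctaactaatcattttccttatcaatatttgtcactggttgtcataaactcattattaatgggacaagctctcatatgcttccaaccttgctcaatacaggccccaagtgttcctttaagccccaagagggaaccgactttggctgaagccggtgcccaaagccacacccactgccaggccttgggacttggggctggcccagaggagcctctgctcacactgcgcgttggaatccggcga
The window of Slc25a1 held 4 GC boxes, 1 CCAAT box and 1 E-box and had a GC content of 70.0%, and that of Slc25a12 held none of the 5 motifs at a GC content of 49.6%. Of 32851 promoters of this length in the table, 32.7% held a GC box, 33.8% a CCAAT box, 12.4% a TATA box, 6.02% an E-box and 1.55% a cAMP response element. Among the 40 promoters of SLC25 members the shares were 72.5%, 50%, 2.5%, 17.5% and 5% in the same order. These belong to 31 members kept by their level in liver, whereas the 32851 cover 27025 genes without such a filter. The shares of these unlike sets were not tested. A match is a run of letters and not evidence of a bound factor.

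The carriers of adenine nucleotides and phosphate supply ATP synthase and export its product. None of the 6 passed the FDR in CLP versus sham in edgeR. An unadjusted p under 0.05 was seen for 4 (66.7%, 1 higher and 3 lower), against 28.6% of all genes (15.5% higher and 13.1% lower). The higher one, Slc25a4, rested on CLP replicate 3 (edgeR unadjusted p 0.46 without it). DESeq2 on 12 mice and voom called 3 each, all lower (13.4% and 25.9% of all genes). Slc25a5 (ANT2), the ADP/ATP exchanger of most tissues, came nearest. It was at 316, 307, 326 and 299 CPM in sham, 237, 248, 245 and 215 CPM in CLP and 283, 249.6, 238 and 299 CPM in CLP+DCA. The CLP mice all lay below the sham mice, and CLP+DCA lay in between and overlapped both. The difference of -0.40 ± 0.10 in CLP (unadjusted p 0.0025) had an edgeR FDR of 0.058, and 0.013 without CLP+DCA replicate 3. Processed pseudogenes of Slc25a5 exist, so that its counts are uncertain as far as reads were shared with them. Slc25a3, which brings in the phosphate, differed by -0.23 ± 0.10 without overlap (237 to 267 CPM in sham, 193 to 234 CPM in CLP, edgeR FDR 0.15).

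Slc25a25, Slc25a23 and Slc25a24 exchange ATP-Mg for phosphate under the control of calcium and so set the size of the adenine nucleotide pool of the matrix. Slc25a25 (SCaMC-2, chr2:32414487-32451470, mm10) varied widely between mice. It was at 243, 263, 84.9 and 328 CPM in sham, 88.8, 139, 104 and 96.6 CPM in CLP and 205, 317, 318 and 191 CPM in CLP+DCA. Sham replicate 3 was the lowest of all mice, so that sham and CLP overlapped, whereas every CLP+DCA mouse was above every CLP mouse. In CLP versus sham it differed by -1.10 ± 0.35 (unadjusted p 0.0082, edgeR FDR 0.080, and 0.043 without CLP+DCA replicate 3), and in CLP+DCA versus CLP by 1.27 ± 0.35, a 2.41-fold higher level (unadjusted p 0.0035, edgeR FDR 0.31). DESeq2 on 12 or 8 mice called both differences, the second with an adjusted p of 0.032 on all 12 mice. These were the only 2 of 23 alternatives that called the second, and voom did not. CLP+DCA and sham differed by 0.17 ± 0.34.

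Slc25a25 shares 1014 bases with Naif1 on the opposite strand, and Naif1 stood at 1.93 CPM on average. The 250 bases before its start nearest to the deposited one (of 3 in the table), chr2:32451471-32451720 on the minus strand, are shown because this carrier had the largest difference between CLP+DCA and CLP among the 3 without overlap, with capitals as above.
Slc25a25: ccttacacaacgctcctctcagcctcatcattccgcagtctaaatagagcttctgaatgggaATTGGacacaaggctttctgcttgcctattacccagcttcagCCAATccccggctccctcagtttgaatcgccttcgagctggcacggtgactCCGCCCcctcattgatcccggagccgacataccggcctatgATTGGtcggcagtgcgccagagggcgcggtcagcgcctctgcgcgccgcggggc
It held 3 CCAAT boxes, 1 GC box and none of the other motifs.

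Slc25a23 (SCaMC-3) had the highest level of these exchangers per kb of exon, 74.6 ± 2.79 CPM per kb in sham against 29.2 ± 13.1 for Slc25a25 and 0.318 ± 0.0608 for Slc25a24 (SD, n = 4 each). In CPM it was at 386, 416, 383 and 394 CPM in sham, 411, 199, 377 and 288 CPM in CLP and 379, 344, 143 and 384 CPM in CLP+DCA. The low levels were those of CLP replicates 2 and 4 and CLP+DCA replicate 3, and no comparison had an unadjusted p under 0.05 (-0.31 ± 0.29 in CLP versus sham). Slc25a24 (SCaMC-1) was near the limit of 1 CPM, between 0.79 and 2.14 CPM.

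Slc25a4 (ANT1), the ADP/ATP exchanger of heart and skeletal muscle, had the largest log2 fold change of the family in CLP versus sham, 3.15 ± 1.04 (edgeR FDR 0.089). This rested on 1 mouse. It was at 3.23, 2.499, 3.01 and 2.90 CPM in sham and 3.68, 3.44, 92.6 and 2.69 CPM in CLP, with 2.999, 3.83, 4.74 and 2.32 CPM in CLP+DCA. The high value belonged to CLP replicate 3, the library with the muscle RNA. Without this mouse the difference was 0.18 ± 0.23 (edgeR FDR 0.62), and that in CLP+DCA versus CLP went from -2.89 ± 1.03 to 0.08 ± 0.23. On the scale of CPM per kb of exon, Slc25a5 was 140 to 175 times as abundant as Slc25a4 in sham and 3.78 times in CLP replicate 3. Slc25a20, Slc25a34 and Slc25a36 also had their highest level in this mouse, 144, 17.3 and 2.32 CPM. The difference of Slc25a34 in CLP+DCA versus CLP, -0.88 ± 0.35 (unadjusted p 0.028), was -0.39 ± 0.26 without it (unadjusted p 0.15). The part that muscle RNA had in these levels was not tested.

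**Figure D3:**
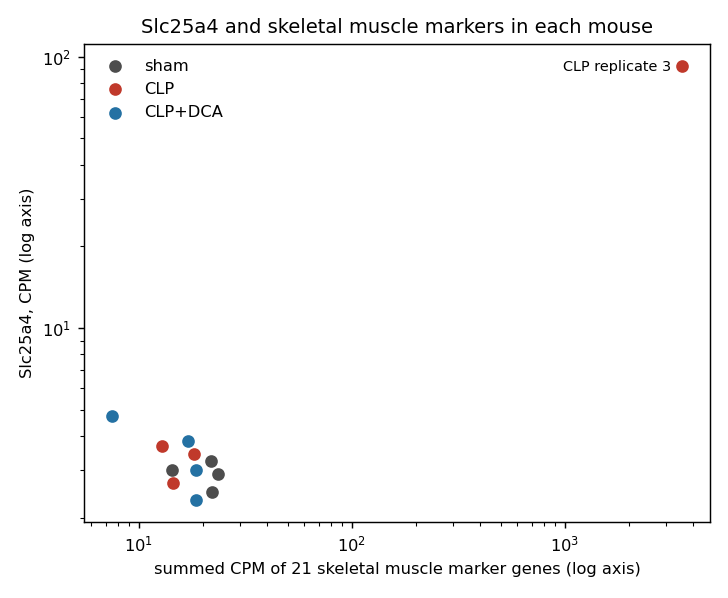
The level of Slc25a4 in CPM (y axis, log scale) is plotted against the summed CPM of 21 skeletal muscle markers (x axis, log scale), with 1 point per mouse coloured by group. CLP replicate 3 stands alone at 92.6 CPM and 3552 CPM, and the other 11 mice lie at 2.32 to 4.74 CPM and at most 23.6 CPM.

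None of the 4 amino acid carriers had an unadjusted p under 0.05 in edgeR in any comparison, and DESeq2 on 12 mice and voom called none. Slc25a15 carries ornithine into the matrix for the urea cycle and had the highest CPM of them. It was at 363, 339, 277 and 375 CPM in sham, 297, 466, 321 and 386 CPM in CLP and 413, 368, 554 and 402 CPM in CLP+DCA. The groups overlapped, with differences of 0.12 ± 0.18 in CLP versus sham, 0.24 ± 0.18 in CLP+DCA versus CLP and 0.36 ± 0.18 in CLP+DCA versus sham (unadjusted p 0.067). CLP+DCA replicate 3, the lowest mouse for 17 carriers, was the highest for this one. The carriers of branched-chain amino acids (Slc25a44), glycine (Slc25a38) and basic amino acids (Slc25a29) differed by -0.13 ± 0.09, -0.12 ± 0.14 and -0.34 ± 0.22 in CLP versus sham.

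Among the 5 carriers of acyl groups, CoA and NAD, Slc25a51 stood out in CLP+DCA. It imports NAD into the matrix (chr4:45395924-45408766, mm10). It was at 104, 105, 75.004 and 115 CPM in sham, 72.5, 139.5, 108 and 86.6 CPM in CLP and 140.5, 146, 164 and 140.3 CPM in CLP+DCA. The lowest CLP+DCA mouse was just above the highest CLP mouse, and sham and CLP covered like ranges. The mean was 99.6 ± 17.1 CPM in sham, 102 ± 29.1 CPM in CLP and 148 ± 11.1 CPM in CLP+DCA (SD, n = 4 each). The difference was 0.03 ± 0.19 in CLP versus sham, 0.54 ± 0.19 in CLP+DCA versus CLP (unadjusted p 0.015, edgeR FDR 0.40) and 0.57 ± 0.19 in CLP+DCA versus sham (unadjusted p 0.012, edgeR FDR 0.30), so that neither of the last passed the FDR in edgeR. Each was called in 1 of 23 alternatives. Voom called Slc25a51 in CLP+DCA versus CLP (adjusted p 0.034), and DESeq2 on the 8 mice compared called it in CLP+DCA versus sham (adjusted p 0.035).

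For the other members of that group the values in CLP versus sham follow. Slc25a20, which exchanges acylcarnitines for carnitine on the way to β-oxidation, differed by 0.28 ± 0.16 in CLP versus sham and by 0.17 ± 0.16 without CLP replicate 3. Slc25a16, linked to CoA transport, was lower in CLP without overlap (66.5 to 74.8 CPM in sham, 55.8 to 62.3 CPM in CLP), a difference of -0.26 ± 0.10 (edgeR FDR 0.11). Slc25a17, the member of the peroxisomal membrane, differed by -0.20 ± 0.09 (unadjusted p 0.041) and the CoA carrier Slc25a42 by -0.17 ± 0.16.

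The last group holds 8 uncoupling-like and less characterised carriers, none past the FDR in edgeR or in DESeq2 on 12 mice. DESeq2 on the 8 mice compared called Slc25a30 higher and Slc25a48 lower in CLP versus sham. In that comparison 1 of them had an unadjusted p under 0.05 in edgeR (12.5%, against 28.6% of all genes), and in CLP+DCA versus CLP 2 had (25%, against 10%), where voom called 2 (9.76% of all genes). Slc25a47, whose expression is known to centre on liver, was at 274, 429.5, 444 and 318 CPM in sham, 323, 329.8, 406 and 287 CPM in CLP and 293, 494, 469.6 and 550 CPM in CLP+DCA. It spread widely within each group, and the difference of 0.42 ± 0.21 in CLP+DCA versus CLP had an unadjusted p of 0.072. Slc25a45 (chr19:5878466-5885768, mm10) was at 30.1, 24.2, 26.8 and 19.8 CPM in sham, 23.4, 20.6, 17.4 and 15.8 CPM in CLP and 31.2, 29.5, 24.1 and 28.6 CPM in CLP+DCA. Every CLP+DCA mouse was above every CLP mouse. The mean was 19.3 ± 3.36 CPM in CLP and 28.4 ± 3.01 CPM in CLP+DCA (SD, n = 4 each), a difference of 0.55 ± 0.15 with the smallest p of the family in that comparison (unadjusted p 0.0032), though not past the FDR of all genes (edgeR FDR 0.30). Without CLP+DCA replicate 3 it was 0.62, with an edgeR FDR of 0.041. Voom called Slc25a45 higher with all 12 mice in the fit.

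Slc25a30, an uncoupling protein-like carrier, differed the other way. It was at 6.28, 5.79, 6.96 and 10.4 CPM in sham, 9.23, 16.6, 12.6 and 8.93 CPM in CLP and 5.01, 3.83, 12.9 and 6.36 CPM in CLP+DCA. The groups overlapped in all comparisons, in CLP+DCA versus CLP through CLP+DCA replicate 3 alone. The difference there was -0.75 ± 0.35 (edgeR FDR 0.50), and without that mouse -1.22 ± 0.27 (edgeR FDR 0.035). Slc25a48 was lower in CLP without overlap (7.17 to 9.80 CPM in sham, 3.06 to 6.63 CPM in CLP), but varied so much that the difference of -0.63 ± 0.42 was far from the threshold (edgeR FDR 0.32). Slc25a46, a protein of the outer membrane that shapes mitochondria, differed by -0.19 ± 0.10, and Slc25a14 and Slc25a27 (UCP5 and UCP4) stayed between 0.84 and 2.49 CPM.

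**Figure D4:**
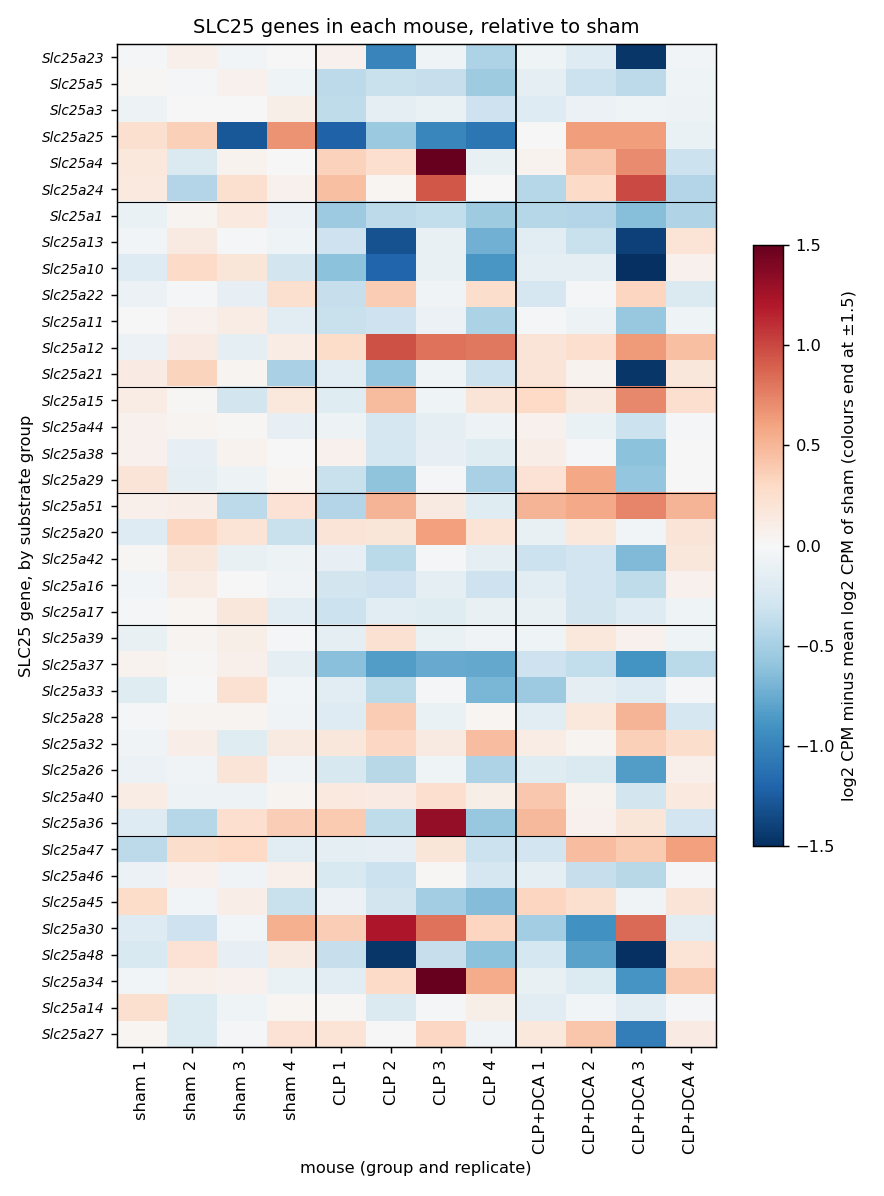
Each cell gives the log2 CPM of 1 of 38 SLC25 genes (rows, by substrate group) in 1 mouse (columns, by group) minus the mean log2 CPM of the 4 sham mice, with blue lower and red higher and colours ending at ±1.5. The columns of the operated groups are not uniform: CLP+DCA replicate 3 has the lowest level of 17 of the 39 genes, and the darkest red cell of Slc25a4 belongs to CLP replicate 3.

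The median carrier of each mouse, taken against the mean of sham, was -0.03 to 0.04 on the log2 scale in the sham mice and -0.25 to -0.07 in the CLP mice. In CLP+DCA it was -0.11, -0.03, -0.27 and -0.01. The lowest of these, replicate 3, the mouse with the largest acute phase share of its group, lay below every CLP mouse. Replicate 1 lay within the range of CLP, replicate 4 within that of sham, and replicate 2 above every CLP mouse and just below the lowest sham mouse (-0.0344 against -0.0317). With replicate 3 of both operated groups left out, 11 carriers passed the FDR in CLP versus sham (31.2% of all genes did), 2 higher and 9 lower, and 6 in CLP+DCA versus CLP (16.9% of all genes), 5 higher and 1 lower. Slc25a1, Slc25a12 and Slc25a37 were among the 11. The 6 were Slc25a10, Slc25a11, Slc25a29, Slc25a37 and Slc25a45, which were higher, and Slc25a30, which was lower. The number of carriers called thus moved with the number of genes called in all.

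Compared between genes per kb of exon, as the sum of CPM over the exon length of the GENCODE M21 annotation, the order of the carriers changed. In sham Slc25a5 was first with 189 ± 7.03 CPM per kb, followed by Slc25a39 with 141 ± 8.31, Slc25a47 with 123 ± 27.9, Slc25a1 with 109 ± 9.09 and Slc25a23 with 74.6 ± 2.79 CPM per kb (SD, n = 4 each). The ranges of Slc25a39 and Slc25a47 overlapped, as did those of Slc25a47 and Slc25a1. In CLP Slc25a5 stood at 143 ± 9.08 and Slc25a39 at 140 ± 16.6 CPM per kb, and their ranges overlapped as well. The last was Slc25a36, a pyrimidine nucleotide carrier, with 0.0996 ± 0.0250 CPM per kb in sham.

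Relatives and working partners of the carriers were taken from lists. Of the family members under other symbols, 3 were tested in CLP versus sham. All had an unadjusted p under 0.05 (against 28.6% of all genes) and none passed the FDR in edgeR. DESeq2 on 12 mice and voom called 2 each (13.4% and 25.9% of all genes). Ucp2, an uncoupling protein also made by macrophages, was at 12.4 to 36.9 CPM in sham and 40.2 to 61.9 CPM in CLP (0.85 ± 0.28, edgeR FDR 0.091). Mtch2, an outer membrane member of the family, was at 116 to 127 CPM in sham and 94.9 to 114 CPM in CLP (-0.27 ± 0.09, edgeR FDR 0.098). Of 16 other transporters of the inner membrane, 13 were lower in CLP (81.2%, against 48.1% of all genes), 4 had an unadjusted p under 0.05 (25%, against 28.6%) and none passed in edgeR (2 in DESeq2, 5 in voom, which called 13.4% and 25.9% of all genes), the nearest being the cation exchanger Letm1 (-0.39 ± 0.10, edgeR FDR 0.053) and Ghitm (-0.40 ± 0.11, edgeR FDR 0.064). Of 16 genes that import carriers into the membrane, 14 were lower (87.5%, against 48.1%), 4 had an unadjusted p under 0.05 (25%, against 28.6%) and none passed in edgeR or DESeq2 (3 in voom), with Tomm40, the channel of the outer membrane, at -0.29 ± 0.09 and the small chaperone Timm10 at -0.42 ± 0.15.

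Of 35 enzymes and channels that work with the carriers, 28 were lower in CLP (80.0%, against 48.1% of all genes), 15 had an unadjusted p under 0.05 (3 higher and 12 lower, 42.9% against 28.6%) and 2 passed the FDR in edgeR (5.71% against 2.78%). DESeq2 on 12 mice called 13 (3 higher and 10 lower) and voom 16 (3 higher and 13 lower). Of all genes these fits called 13.4% and 25.9%. Gclc, the catalytic subunit of the enzyme that starts glutathione synthesis, fell from 218 to 257 CPM in sham to 117 to 151 CPM in CLP (-0.76 ± 0.15, edgeR FDR 0.029). Crat, the mitochondrial carnitine acetyltransferase, rose from 28.6 to 58.8 CPM to 92.0 to 113 CPM (1.27 ± 0.25, edgeR FDR 0.035). None of the genes on these 4 lists passed the FDR in CLP+DCA versus CLP in edgeR, and 1 import gene (6.25%) and 6 of the partners (17.1%) had an unadjusted p under 0.05, against 10% of all genes. DESeq2 called 1 partner there (0.875% of all genes), and voom called 5 partners, 1 import gene and 1 inner membrane transporter (9.76% of all genes). Their medians in CLP versus sham were -0.27, -0.18, -0.15 and -0.32 in the order given, beside -0.13 for the carriers and 0.02 for all genes.

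The 8 rows under the limit were Slc25a35 and Slc25a53 (0.93 and 0.59 CPM on average), which passed the filter on low counts, and Slc25a18, Slc25a2, Slc25a43, Slc25a31, Slc25a41 and Slc25a54, which did not. Slc25a54 had no read in any mouse. Slc25a41, an ATP-Mg carrier with 0.0034 CPM on average, lies 2056 bases from the abundant Slc25a23 on the same strand, and Slc25a43, with 0.066 CPM, lies 18289 bases from Slc25a5. Members of 4 loci share bases with another gene. Besides Slc25a25 these were Slc25a26, which shares 124 bases with Lrig1 on the opposite strand, a gene of 45.9 CPM on average, Slc25a21 (with Pax9) and Slc25a39 (with Mir6930). Reads from the opposite strands of a shared stretch cannot be told apart by this library kit, which does not mark strand.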

How the data were processed

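Per the labels and the study's methods, the authors prepared poly(A) libraries from whole liver, sequenced paired ends of 100 bases, aligned them to mm10 with STAR 2.5 and counted reads per gene with featureCounts (Subread 1.5.0-p1). They deposited unnormalized counts for 12 mice. The gene annotation and strand setting are not given in the sources used here. Counts were kept by filterByExpr (minimum count 10), scaled by TMM and fitted across all 13190 genes and 12 mice with edgeR 4.0.16 (robust quasi-likelihood, R 4.3.3), and p-values were adjusted over all genes by Benjamini-Hochberg at an FDR of 0.05. CPM values use TMM library sizes unless total counts are named. Errors of fold changes are SEs. Members, lists and tests were chosen with earlier results of these data known.

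Given in every mouse are members past the FDR in any comparison, the 3 with the smallest p in each, the 5 with the highest mean CPM and the first by mean CPM of each substrate group, and from each list of partners the 2 genes with the smallest p are named by range or fold change. Slc25a4, Slc25a13, Slc25a30 and the genes Alas2 and Ass1 were added after their values were seen. Alternatives were DESeq2 1.42.0, voom (limma 3.58.1), other scalings and filters, a replicate block and leaving out mice. The sources used here do not say that the replicate numbers pair mice. The values of 1 member and 1 marker are not reported here. The fits were tested on simulated counts with the same spread for every gene and no outlying mouse. That test does not cover the effect of the libraries that stood apart here. Depth of 24436513 to 44266819 reads sets the counting error, which the SD between mice includes.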

Additional observations from a re-analysis of the deposited data

Results flagged for a closer look

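Within the 3 groups of 4 mice, the most extreme mouse of each carrier was compared with the others by Dixon's criterion at the 95% level. Of 117 such groups 7 had an extreme mouse, and chance alone gives 5.85. In CLP+DCA, replicate 3 was far below the others for Slc25a23 (143 CPM, others 344 to 384 CPM), Slc25a1 (152 CPM, others 173 to 175 CPM), Slc25a11 (40.5 CPM, others 56.9 to 58.9 CPM) and Slc25a21 (2.27 CPM, others 6.48 to 7.11 CPM). In CLP, replicate 3 was far above the others for Slc25a4 (92.6 CPM, others 2.69 to 3.68 CPM) and Slc25a20 (144 CPM, others 106 to 108 CPM). In sham, replicate 3 was above the others for Slc25a26 (8.95 CPM, others 7.32 to 7.55 CPM). CLP replicate 3 held the muscle RNA and CLP+DCA replicate 3 the largest acute phase share of its group, and the part of either in these values was not tested.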

How the results depend on the processing

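The share of all genes called is in brackets. Against 3 carriers called in CLP versus sham (2.78%), edgeR on the 8 mice compared called 5 (18.3%). DESeq2 called 6 on 12 mice (13.4%) and 11 on the 8 (23.2%), and voom 10 (25.9%). An FDR of 0.10 gave 6 (15.3%), no filter on low counts 1 (0.647%) and the replicate block 0 (0.349%). Leaving out 1 mouse gave 0 to 8 (0.0749% to 23.8%). Leaving out replicate 3 of both operated groups, chosen after seeing the data, gave 11 (31.2%). In CLP+DCA versus CLP, DESeq2 called 1 in either form (0.875% and 0.615%), voom 4 (9.76%) and leave-one-out 0 to 3 (0% to 4.64%). The fit without replicate 3 of both operated groups called 6 there (16.9%). In CLP+DCA versus sham, DESeq2 called 2 in either form (1.79% and 1.19%), voom 2 (3.59%) and leave-one-out none (0.00749% to 0.0828%). Same-numbered deviations correlated at -0.05 to 0.09 in CLP versus sham and -0.46 to 0.55 in CLP+DCA versus CLP. Whether the numbers mark mice handled together cannot be told from so few mice. The block also left 0 carriers in CLP+DCA versus CLP (0.0303% of all genes) and in CLP+DCA versus sham (0%). The median of the carriers went to -0.31 without scaling and -0.016 without acute phase genes in CLP versus sham, to 0.16 without scaling and 0.15 without replicate 3 of both operated groups in CLP+DCA versus CLP (-0.022 to 0.10 leaving out 1 mouse), and to 0.012 without acute phase genes in CLP+DCA versus sham.

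In the alternatives run, signs turned for uncalled differences of 6 named carriers. In CLP versus sham these were Slc25a51 (-0.14 by voom, -0.15 unscaled, -0.16 to 0.16 leaving out 1 mouse), Slc25a15 (-0.073 unscaled, -0.018 to 0.21 leaving out 1 mouse) and Slc25a39 (0.11 without acute phase genes, 0.021 without replicate 3 of both operated groups, -0.098 to 0.029 leaving out 1 mouse). In CLP+DCA versus CLP they were Slc25a23 (0.17 by voom, 0.087 unscaled, 0.30 without replicate 3 of both operated groups, -0.20 to 0.21 leaving out 1 mouse), Slc25a1 (0.051 by voom, 0.090 unscaled, 0.048 without replicate 3 of both operated groups, -0.057 to 0.018 leaving out 1 mouse) and Slc25a39 (-0.0096 without replicate 3 of both operated groups, -0.024 to 0.12 leaving out 1 mouse). In CLP+DCA versus sham they were Slc25a39 (-0.037 unscaled, -0.016 to 0.053 leaving out 1 mouse) and Slc25a25 (-0.11 to 0.39 leaving out 1 mouse). Slc25a37 passed the FDR in CLP versus sham in 17 of 23 alternatives, Slc25a12 in 13 and Slc25a1 in 11. The causes were not tested. Near 1 CPM the SE in CLP versus sham was 0.34 for Slc25a24 and 0.38 for Slc25a36, so that a difference of the size of Slc25a1 was not detectable there.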
